A study of Mus musculus with 78 samples.

Results

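The cytosolic ribosomal protein genes encode the protein components of the cytosolic ribosome. They were chosen by symbol: 89 symbols had the form of Rpl or Rps followed by a number, or were Rplp0, Rplp1, Rplp2 or Rpsa, and the 83 of them annotated as protein-coding were kept, out of 55401 genes in the count tables and 22028 protein-coding genes. The other 6 were non-coding and were left out (Rpl32l, Rpl6l, Rps12l1, Rps3a2, Rps3a3 and Rps4l). Of the 83 genes, 51 belong to the large and 32 to the small subunit, and they lie on 19 chromosomes.

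The ribosome joins a large subunit, which holds the peptidyl transferase centre and the exit tunnel, to a small subunit, which reads the mRNA. Each of its proteins is needed in about equal amounts, so the genes are usually transcribed at high and matched rates, and many of their mRNAs begin with a cytosine and a run of pyrimidines, the 5′ terminal oligopyrimidine (TOP) element through which translation responds to mTOR. When ribosome assembly is disturbed, free Rpl5 and Rpl11 bind Mdm2 and stabilise p53.

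All libraries came from E14TG2a mouse embryonic stem cells (mESCs) in which both alleles of Zfp143, a zinc-finger transcription factor of promoters, carried an FKBP degron, so the DMSO controls carried the tag too. The degrader dTAG-V1 was given at 500 nM, and DMSO was the control. Cells were grown in 2i and LIF. Transient transcriptome sequencing (TT-seq), which labels RNA made in a short pulse, covered DMSO and 2 h, 6 h and 24 h of dTAG-V1, and an RNA-seq time course of steady-state mRNA covered DMSO and 24 h, 48 h and 72 h. In the RA table, RNA-seq was done on cells kept in DMSO or dTAG-V1 for 24 h and on such cells given retinoic acid (RA) for a further 24 h, so that the RA-treated depleted cells had been depleted for 48 h. RA came with a change from stem cell to differentiation medium, and no library had that medium alone, so RA and the medium cannot be told apart. Each of the 4 groups of a table had 2 libraries, and the study used homozygous clones grown from single cells without the sources used here saying which clone gave which library.

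TT-seq libraries held 9721568 to 16532077 counts, those of the RNA-seq time course 10261851 to 15316700 and those of the RA table from 13890761 to 27089033. The spread between libraries of a group, as a biological coefficient of variation common to all genes, was 17.2% in TT-seq, 3.65% in the time course and 5.92% in the RA table. The lower spread of both RNA-seq tables let smaller changes pass a test there than in TT-seq. After the filter on low counts 82 ribosomal protein genes were tested in TT-seq, all but Rpl3l, and all 83 in both RNA-seq tables, among 17870, 13925 and 15915 tested genes. The Zfp143 transcript was not a check of depletion, since the degron acts on the protein, and stood at 71.2 and 74.2 CPM (counts scaled to the library total) in TT-seq DMSO and between 161 and 169 CPM in the depleted libraries. All 12 pluripotency markers were detected in every library, and their summed level in the RNA-seq time course was 8103 and 8263 CPM in DMSO and 4978 and 4936 CPM at 72 h. In 1 RNA-seq DMSO library the gene CT010467.1 took 435974 counts, against 57868 to 86060 in the other 7 libraries.

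Ribosomal protein genes ranked among the most transcribed genes of these cells. RPKM here are CPM divided by the kilobases of exon in RNA-seq and of the whole gene in TT-seq, which also covers introns, so the scales of the assays differ. Per length, the median level in DMSO of the 82 genes tested in both assays was 280 RPKM in RNA-seq, against 7.64 over 12010 protein-coding genes, and 61.4 RPKM in TT-seq, against 1.40. Above the 95th percentile of protein-coding genes stood 72 of 82 ribosomal protein genes in RNA-seq and 79 in TT-seq. The highest steady-state levels were those of Rpl4 with 2047 RPKM, which lines the exit tunnel, Rplp1 with 1910 RPKM and Rpl8 with 1788 RPKM. The lowest steady-state levels among these 82, which do not include the muscle gene Rpl3l, were those of Rpl24 with 0.687 RPKM and Rps10 with 5.36 RPKM, although TT-seq gave them 37.7 and 47.0 RPKM. Each overlaps another gene on its strand, Rpl24 the transcript Gm28037 and Rps10 the protein-coding RPS10-NUDT3. Annotated pseudogenes carry the names of 60 of the genes, 292 in all, with 4 for Rps10 and 0 for Rpl24. Rpl13a, whose introns hold snoRNA genes, stood at 160 RPKM in TT-seq and 53.7 RPKM in RNA-seq, and 30 of the 83 genes hold a snoRNA gene on their own strand. The levels of Rpl24 and Rps10 above all are uncertain, and the part of overlapping genes or shared reads in them was not tested.

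Nascent transcription of the family was lower from the first hours of ZFP143 depletion. Relative to the DMSO mean, the median ribosomal protein gene stood at −0.31 and −0.16 on the log2 scale in the 2 h libraries. The 6 h libraries stood at −0.55 and −0.44, those of 24 h at −0.38 and −0.42, and the controls themselves at 0.07 and −0.07. Every depleted library thus lay below both controls, and the 6 h libraries lay lowest. In the fit over all libraries the median change was −0.23 at 2 h, −0.50 at 6 h and −0.41 at 24 h, against 0.01, 0.00 and 0.00 over all tested genes. In bulk libraries less RNA per cell and fewer cells of a type cannot be told apart.

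**Figure D1:**
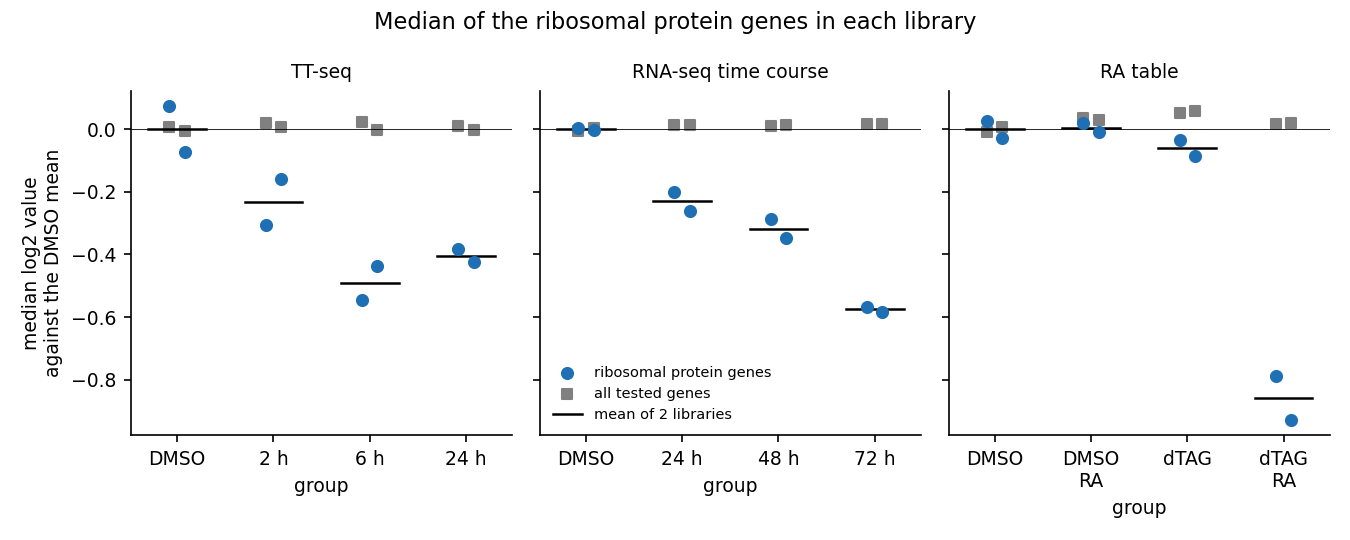
Median log2 level of the tested ribosomal protein genes in each library relative to the DMSO mean of its table (y axis), by group (x axis), for TT-seq, the RNA-seq time course and the RA table; each dot is 1 library, the squares give the median of all tested genes and the lines the mean of 2 libraries. In TT-seq the 6 h libraries sit at −0.55 and −0.44, in RNA-seq the 72 h libraries at −0.57 and −0.58, and in the RA table the dTAG libraries after RA at −0.79 and −0.93.

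The direction was shared by nearly all genes of the family, while fewer of them passed the test. At 2 h the change was negative in 79 of 82 genes, at 6 h in 82 and at 24 h in 79, where 48.4% of all tested genes were negative at 2 h. Called lower (edgeR quasi-likelihood test, Benjamini-Hochberg adjusted p under 0.05 and a log2 change beyond 0.5) were 3 of 82 genes at 2 h against 2.37% of all tested genes, 24 at 6 h against 2.92%, and 21 at 24 h against 4.25%. None was called higher at any time. By subunit, 16 large and 8 small subunit genes fell at 6 h, with median changes of −0.52 and −0.45. At 2 h, 6 h and 24 h DESeq2 called 6, 30 and 28 genes lower. With replicate numbers as a block, though they are not stated to mark a pair, edgeR called 7, 37 and 28.

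With 2 libraries a group, leaving out 1 library leaves 1 in that group and so less power. The edgeR counts without a block fell whichever library was left out, so these values do not single out a library. At 2 h the count was 1 without DMSO replicate 1, without DMSO replicate 2 or without 2 h replicate 2, and 0 without 2 h replicate 1. At 6 h it was 4 without DMSO replicate 1, 10 without DMSO replicate 2, 2 without 6 h replicate 2 and 0 without 6 h replicate 1. At 24 h it was 3 without DMSO replicate 1, 13 without DMSO replicate 2, 1 without 24 h replicate 1 and 2 without 24 h replicate 2. The median change moved less when 1 library was left out, from −0.32 to −0.17 for the 2 h contrast, from −0.56 to −0.40 for 6 h and from −0.50 to −0.33 for 24 h. Over the 48 genes with no other gene on the same strand the medians were −0.23, −0.50 and −0.40.

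Between the depleted groups, which share no library, the 6 h libraries were lower than the 2 h libraries in 78 of 82 genes, with a median difference of −0.27. None of these differences passed the quasi-likelihood test after adjustment, against 0.0% of all tested genes, 16 had an unadjusted p under 0.05, and DESeq2 called 0. From 6 h to 24 h the change was positive in 68 genes with a median of 0.09, and again 0 genes were called against 0.0% of all genes, by edgeR or by DESeq2, with 1 lower and 1 higher at an unadjusted p under 0.05.

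Rplp2 and Rpl15 fell most at 2 h. Rplp2 forms with Rplp1 the acidic dimers of the P stalk, which recruits elongation factors to the large subunit. Its nascent level was 267 and 274 CPM in DMSO, 132 and 154 CPM at 2 h, 110 and 127 CPM at 6 h, and 110 and 132 CPM at 24 h. All 6 depleted libraries lay well under both controls, while the 6 h and 24 h libraries overlapped. The log2 change was −0.92 ± 0.14 (SE) at 2 h, −1.19 ± 0.14 at 6 h and −1.16 ± 0.14 at 24 h (edgeR adjusted p = 0.0104, 0.00295 and 0.00273). The call of Rplp2 was lost at least at 2 h without either 2 h library and at 6 h without 6 h replicate 1.

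Rpl15, a large subunit protein needed to assemble that subunit, stood at 180 and 168 CPM in DMSO, 70.6 and 95.4 CPM at 2 h, 68.4 and 89.3 CPM at 6 h, and 91.4 and 91.5 CPM at 24 h. Its highest depleted library was under both controls, and the level at 24 h was not below that at 2 h. The log2 change was −1.06 ± 0.18 at 2 h, −1.14 ± 0.18 at 6 h and −0.93 ± 0.18 at 24 h (edgeR adjusted p = 0.015, 0.0105 and 0.0197). The call was lost at 2 h without either DMSO library or without 2 h replicate 1, at 6 h without either DMSO library or 6 h replicate 1, and at 24 h without any 1 of its 4 libraries, while the log2 change stayed between −1.10 and −0.87, −1.18 and −0.96, and −0.96 and −0.87. Nkiras1, which starts within 1000 bp of Rpl15 on the opposite strand, gave 0.32, 0.30 and 0.29 at the same times and was not called.

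The promoters of both genes are printed because both held a strong ZFP143 peak and had the lowest changes at 2 h. The sequences run from 170 bases before to 14 after the RefSeq start site (assembly GRCm38.p6), 5′ to 3′ on the strand of the gene, Rpl15 at chr14:18270972-18271156 on the minus strand and Rplp2 at chr7:141447481-141447665 on the plus strand. Capitals mark the ZFP143 core ACTACAA, the ETS factor core CCGGAAG or its complement CTTCCGG, and the pyrimidine run that begins at the start site.
Rpl15: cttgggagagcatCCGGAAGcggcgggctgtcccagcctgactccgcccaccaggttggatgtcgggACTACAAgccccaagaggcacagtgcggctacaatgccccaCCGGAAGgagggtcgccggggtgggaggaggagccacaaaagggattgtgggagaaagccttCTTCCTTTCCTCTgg
Rplp2: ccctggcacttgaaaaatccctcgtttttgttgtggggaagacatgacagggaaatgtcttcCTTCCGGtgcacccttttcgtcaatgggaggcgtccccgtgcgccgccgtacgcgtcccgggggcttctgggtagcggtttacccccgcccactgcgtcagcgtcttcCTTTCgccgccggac
The Rpl15 promoter held ACTACAA from 103 to 97 bases before the start site, 84.5 bp from the centre of its ZFP143 peak, and 2 ETS cores. The Rplp2 window held 1 ETS core and no ACTACAA. That sequence was in 18.7% of all ZFP143 peaks (windows of 301 bp), so lacking it does not mean lacking a ZFP143 site. The pyrimidine run was 13 bases in Rpl15 and 5 in Rplp2.

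Of the other large subunit genes that fell in nascent RNA, Rpl32 passed at each time and the rest at 6 h, at 24 h or at both. Rpl32 was the third gene called at 2 h, with 301 and 242 CPM in DMSO and 161 and 184 CPM at 2 h, and its log2 change of −0.66 ± 0.14 had an edgeR adjusted p of 0.0494, just inside the threshold. At 6 h Rpl32 stood at 143 and 147 CPM, and at 24 h at 169 and 154 CPM, all below DMSO. Rpl30, which also binds its own pre-mRNA in yeast, changed by −0.84 ± 0.22 at 2 h, which did not pass, and fell by 1.12 ± 0.23 at 6 h and by 0.95 ± 0.23 at 24 h. Rpl24 stood at 193 and 196 CPM in DMSO and at 103 and 133 CPM at 2 h, and its fall passed at 6 h with −0.85 and at 24 h with −0.71.

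Rpl6, Rpl31 of the tunnel exit, Rpl13a and Rpl3, which reaches the peptidyl transferase centre, fell at both 6 h and 24 h by between 0.54 and 0.76. Rpl3 had the highest nascent count of these, with 1371 and 1261 CPM in DMSO against 817 and 904 CPM at 6 h. Rpl13, Rpl7a and Rpl39 were called at 6 h but not at 24 h, and Rpl28, Rpl22 and Rpl10, which helps the subunits join, at 24 h but not at 6 h. Rpl10 stood at 183 and 189 CPM in DMSO, 144 and 164 CPM at 6 h, and 124 and 133 CPM at 24 h.

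In the P stalk and the 5S particle the values of partners were unequal. Rplp0, the anchor of the stalk, fell by 0.75 at 6 h and by 0.68 at 24 h, and Rplp1 by 0.62 and by 0.60, both less than Rplp2, though the differences between genes were not tested. Rpl11 fell by 0.72 ± 0.14 at 6 h and by 0.59 ± 0.14 at 24 h. Rpl5, its partner on 5S rRNA, stood at 352 and 409 CPM in DMSO and at 303 and 346 CPM at 6 h, and its changes of −0.24, −0.23 and −0.31 were not called.

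Among small subunit genes, none was called at 2 h. Rps29, a zinc-binding protein of the small subunit head, changed by −0.71 at 2 h (edgeR adjusted p = 0.0545) and fell by 0.94 at 6 h and by 0.92 at 24 h, from 72.3 and 80.5 CPM in DMSO to 35.6 and 43.8 CPM and then 37.5 and 43.1 CPM. Rps9 stood at 368 and 382 CPM in DMSO and at 199 and 220 CPM at 6 h, a fall of 0.84 with an edgeR adjusted p of 0.00943. Rps3, which sits where the mRNA enters, Rps12 and Rps13 fell at 6 h and 24 h by between 0.52 and 0.69, and Rps10, Rps18 and Rps25 at 6 h, by 0.67, 0.67 and 0.57.

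Some genes of the family stood apart by a change near 0. Rps20 had 373 and 379 CPM in DMSO, 411 and 397 CPM at 2 h, 383 and 363 CPM at 6 h, and 371 and 390 CPM at 24 h, so the depleted libraries spanned the controls at 6 h and 24 h. Rpl4 changed by −0.02, −0.07 and −0.05, and Rpl26 of the tunnel exit by −0.03, −0.12 and −0.15. Rps23 of the decoding centre changed by 0.05, −0.23 and −0.19. None of these values was called. Rpsa, at the head of the small subunit, had −0.05 at 2 h, then −0.34 and −0.41, also without a call.

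Steady-state mRNA of the family was lower at each later time. Relative to the DMSO mean of the RNA-seq time course, the median gene had log2 values of −0.20 and −0.26 after 24 h of depletion. After 48 h it had −0.29 and −0.35, and after 72 h −0.57 and −0.58. The libraries of each time lay below those of the time before, and the DMSO libraries at 0.00 and 0.00. The fitted median change was −0.24, −0.32 and −0.57, against 0.02, 0.01 and 0.02 over all tested genes. Ribosomal protein genes took 4.96% and 5.09% of all counts in DMSO and 4.08% and 4.05% at 72 h. Between them this share, which has no TMM scaling, did not fall with time, with means of 4.68% ± 0.12 (SD, n = 2) after 24 h of depletion and 4.70% ± 0.12 after 48 h.

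With the thresholds of the study, a 1.5-fold change and an adjusted p under 0.01, here tested by edgeR glmTreat where the study used DESeq2, 0 of 83 genes fell at 24 h against 3.41% of all tested genes, 4 at 48 h against 7.71%, and 29 at 72 h against 12.0%. At 72 h 1 gene rose, against 13.7%. DESeq2 at the same thresholds called 0, 2 and 15 lower. The count at 24 h was 1 without DMSO replicate 2, and that at 48 h was 7 without DMSO replicate 2 and 7 without 48 h replicate 1.

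A test with no fold threshold showed how widely the small changes were shared (edgeR quasi-likelihood, adjusted p under 0.05). At 24 h 66 of 83 genes were lower and 1 was higher, against 24.3% and 22.7% of all tested genes, and 69 were lower at an unadjusted p under 0.05. At 48 h 67 were lower and 4 higher, against 33.4% and 33.6%, and at 72 h 76 were lower and 1 higher, against 36.2% and 36.5%. These counts rest on TMM scaling, and with library size alone, which raised the median of all genes by 0.13, 0.20 and 0.22, the lower and higher genes numbered 37 and 5 at 24 h, and 43 and 15 at 48 h, while by the 1.5-fold test the split was 2 and 1 at 48 h and 5 and 1 at 72 h. At 24 h the median of the ribosomal protein genes was then −0.11, at 48 h −0.12 and at 72 h −0.35, still below 0. Most pluripotency markers were lower over the same libraries, 12, 10 and 10 of 12 at any size, with 2 higher at 72 h. By the 1.5-fold test 3, 6 and 6 were lower, against 3.41%, 7.71% and 12.0% of all genes. Of 8 primitive endoderm markers 4 were tested, and all 4 were higher at any size at 48 h and at 72 h, with a summed level over the 8 of 6.69 and 7.82 CPM in DMSO and 19.5 and 19.1 CPM at 72 h. The part of either list in the result was not tested.

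**Figure D2:**
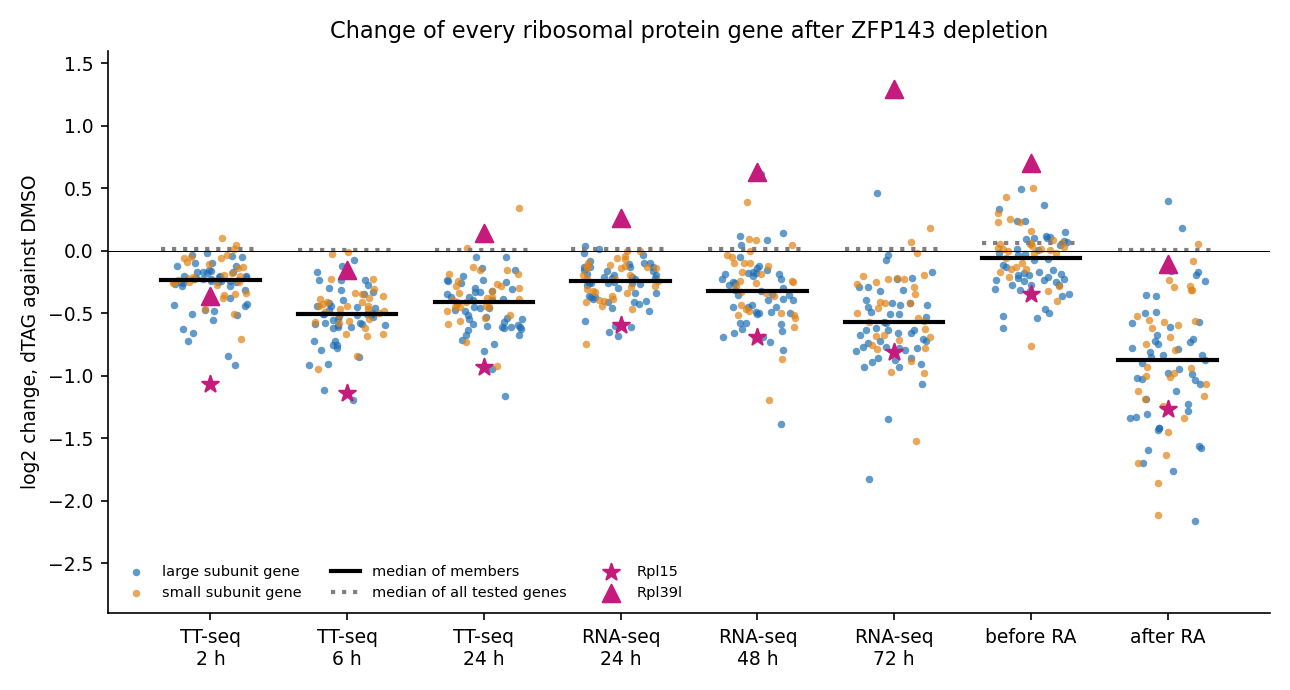
Log2 change of each tested ribosomal protein gene (dots) against DMSO in TT-seq at 2 h, 6 h and 24 h and in RNA-seq at 24 h, 48 h and 72 h, and of dTAG against DMSO before and after RA, with Rpl15 and Rpl39l marked and the median of the family and of all tested genes drawn as lines. The family median is −0.50 at 6 h in TT-seq and −0.57 at 72 h in RNA-seq, and Rpl39l stands at 1.29 at 72 h.

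Between times the values moved down mainly from 48 h to 72 h. From 24 h to 48 h the median was −0.08, with 31 genes lower and 7 higher at any size against 23.4% and 22.9% of all genes, and 18 lower without 48 h replicate 2. With library size alone the split was 18 lower and 12 higher. From 48 h to 72 h the median was −0.21 and 79 of 83 values were negative, with 65 lower against 21.8%. These contrasts do not involve the DMSO libraries.

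Rps29 and Rpl37a had the lowest changes of the better-counted genes. Rps29 stood at 206 and 134 CPM in DMSO, 106 and 94.6 CPM at 24 h, 82.7 and 64.2 CPM at 48 h, and 60.0 and 57.9 CPM at 72 h. Its controls were unequal, yet no depleted library reached the lower of them. Its log2 change went from −0.75 ± 0.11 at 24 h through −1.19 ± 0.12 (48 h) to −1.52 ± 0.12 (72 h), where glmTreat in edgeR gave an adjusted p of 1.36e-08.

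Rpl37a, a zinc-binding protein of the large subunit, stood at 404 and 371 CPM in DMSO, 249 and 234 CPM at 24 h, 161 and 134 CPM at 48 h, and 149 and 155 CPM at 72 h. All depleted libraries lay below both controls, and the level at 72 h lay within the range of that at 48 h. It fell by 1.39 ± 0.06 at 48 h and by 1.35 ± 0.06 at 72 h, times without nascent data. Its nascent changes at 2 h, 6 h and 24 h were −0.21, −0.59 and −0.47, none of them called.

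Rps25, needed for internal ribosome entry on some viral RNAs, stood at 430 and 484 CPM in DMSO, 347 and 327 CPM at 24 h, 260 and 242 CPM at 48 h, and 227 and 239 CPM at 72 h, with falls of 0.87 and 0.97 at the last times. Rplp2 stood at 828 and 859 CPM in DMSO, 571 and 501 CPM at 24 h, 519 and 456 CPM at 48 h, and 460 and 470 CPM at 72 h. Both genes were below their controls in every depleted library, and with Rps29 and Rpl37a they were the 4 genes called at 48 h.

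**Figure D3:**
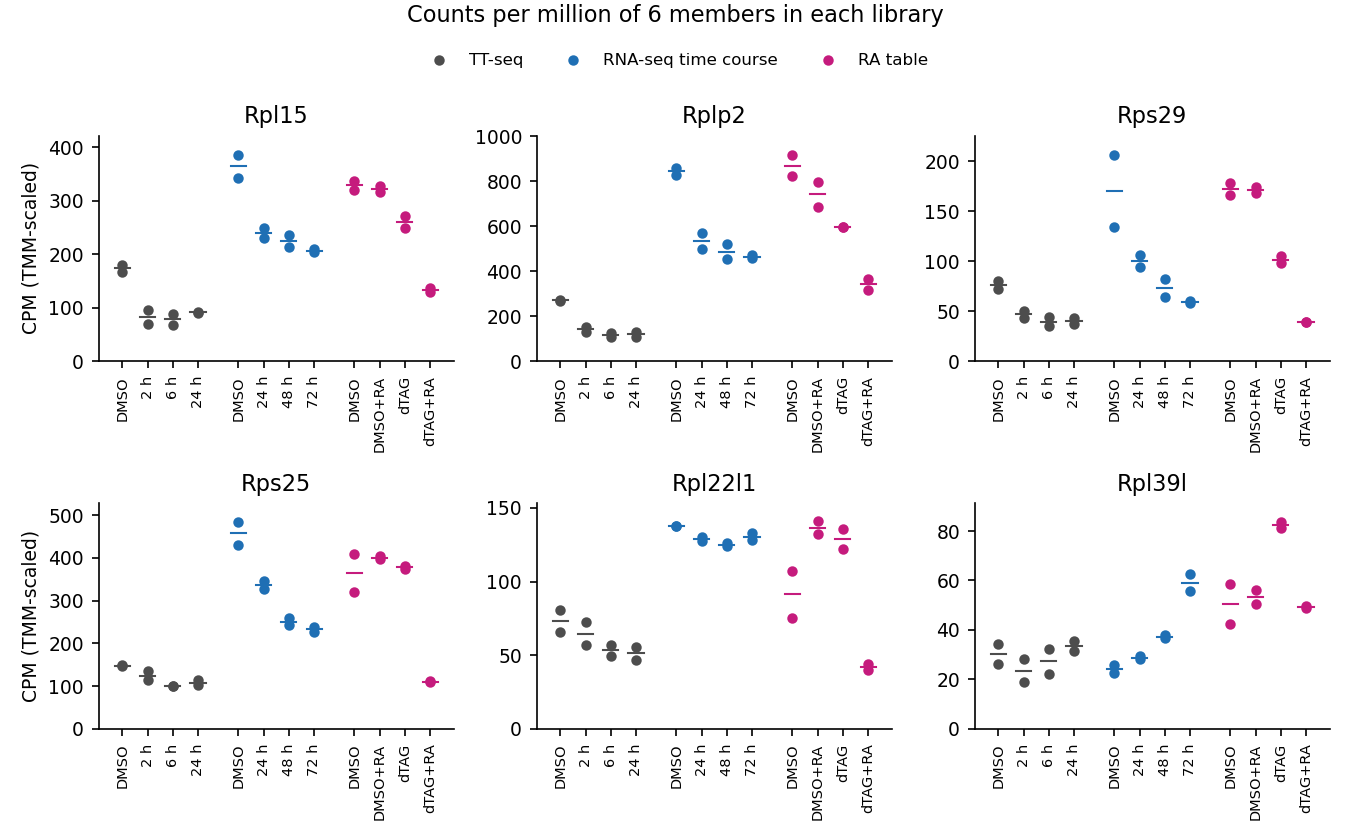
Level in TMM-scaled CPM (y axis) of 6 ribosomal protein genes in each library (dots) by group (x axis), in TT-seq, the RNA-seq time course and the RA table; short lines are means of 2 libraries. Rpl15 lies between 68.4 and 95.4 CPM in the depleted TT-seq libraries against 168 and 180 CPM in DMSO, and Rpl39l stands at 55.6 and 62.8 CPM in RNA-seq at 72 h.

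Rpl15 mRNA stood at 386 and 343 CPM in DMSO, 250 and 231 CPM at 24 h, 236 and 214 CPM at 48 h, and 204 and 210 CPM at 72 h. The drop was mostly in place at 24 h, with no overlap with the controls. Its log2 change was −0.60 ± 0.05 at 24 h (edgeR quasi-likelihood adjusted p = 3.07e-10), −0.69 ± 0.05 at 48 h and −0.81 ± 0.05 at 72 h, and against a 1.5-fold change the adjusted p was 0.0329 at 48 h and 0.00011 at 72 h, so that only the last was called.

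In the 5S particle Rpl11 stood at 280 and 268 CPM in DMSO and 149 and 147 CPM at 72 h, a fall of 0.89 ± 0.06 called at 72 h. Rpl5 stood at 398 and 353 CPM in DMSO and 252 and 231 CPM at 72 h, and its change of −0.64 ± 0.06 passed at any size but not against a 1.5-fold change. In the stalk, Rplp1 fell by 0.77 at 72 h and was called, and Rplp0 changed by −0.66 and passed at any size. Rpsa stood at 1339 and 1401 CPM in DMSO and 1089 and 1071 CPM at 72 h, a change of −0.34.

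Nascent and steady-state values did not run in parallel for every gene. Nascent RNA was not measured after 24 h, so later mRNA has no nascent value beside it. Rps20, near 0 in TT-seq at each time, stood in mRNA at 1255 and 1304 CPM in DMSO and 1055 and 1018 CPM at 24 h. It fell to 741 and 751 CPM at 72 h, a log2 change of −0.78 ± 0.04 that was called. Rpl18 and Rps19 changed by −0.03 and −0.02 at 72 h, with Rps19 at 619 and 621 CPM in DMSO and 597 and 629 CPM at 72 h. Rps15a stood at 463 and 490 CPM in DMSO and 510 and 492 CPM at 72 h, and was not called. Rpl24, called in TT-seq, had 0.48 to 1.24 CPM in RNA-seq and gives no usable steady-state change.

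The paralogs are copies expressed in few tissues or with roles of their own, and their values varied in direction. Rpl39l, a copy of the exit-tunnel protein Rpl39 known from male germ cells, was the 1 gene called higher at 72 h. It had 25.9 and 22.5 CPM in DMSO, 29.3 and 28.3 CPM at 24 h, 37.8 and 36.6 CPM at 48 h, and 62.8 and 55.6 CPM at 72 h, with no overlap between any groups. Its log2 change was 0.26 ± 0.09, 0.63 ± 0.09 and 1.29 ± 0.08, the last with a glmTreat adjusted p of 3.81e-09 in edgeR. Its nascent changes of −0.36, −0.15 and 0.14 at 2 h, 6 h and 24 h were not called, and later times had no nascent data. Over the same libraries its parent gene Rpl39 went from 134 and 151 CPM to 79.4 and 73.6 CPM.

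Rpl22l1, whose parent Rpl22 represses it in other cells, stood at 138 and 138 CPM in DMSO against 128 and 133 CPM at 72 h, while Rpl22 went from 621 and 644 CPM to 412 and 412 CPM. Rpl22l1 was not called at 72 h at any size and Rpl22 passed at any size with −0.62. Rpl7l1, which acts in assembly of the large subunit in the nucleolus, changed by −0.44, and Rps27l, a p53 target, by −0.26, both at any size. Rpl10l, a retrogene copy of Rpl10 known from testis, fell by 0.77 from 107 and 111 CPM to 64.0 and 63.8 CPM and was called. Rpl3l, the muscle copy of Rpl3, lay between 0.41 and 2.16 CPM, and its called change of −1.83 rests on few counts.

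ZFP143 peaks lay at the start sites of 32 of 83 ribosomal protein genes (38.6%), 22 of the large and 10 of the small subunit, against 2089 of 13660 protein-coding genes (15.3%) tested in TT-seq. A peak was given to a gene if it reached into the stretch between 2000 bp before and 1000 bp after one of the gene's start sites and was centred no more than 2000 bp away. The list held 3189 peaks from DMSO cells and had no replicates. The median distance from peak centre to start site was 65.8 bp, and the fold enrichment over input ran from 8.92 at Rpl24 to 80.8 at Rplp2 with a median of 30.2, against 20.8 over all peaks. None of the 32 was among the 100 peaks with the highest enrichment. After Rplp2, whose peak lies at chr7:141447060-141447976, came Rpl15 at chr14:18270704-18271299 with 73.1-fold, Rps23 with 63.0-fold and Rpl7 with 61.8-fold.

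Genes with a peak had the lower median at each time, and genes without a peak were lower than DMSO too. At 2 h the median log2 change was −0.43 over 32 genes with a peak, 3 of them called, and −0.21 over 50 without, 0 of them called. At 6 h the medians were −0.54 and −0.46 with 14 and 10 called, and at 24 h −0.50 and −0.39 with 13 and 8 called. Among other protein-coding genes 17.5%, 18.8% and 23.4% of those with a peak were called lower at the same times, and 0.174%, 0.295% and 1.28% of those without. Other protein-coding genes with a peak had medians of −0.28, −0.29 and −0.30, and those without a peak 0.04, 0.03 and 0.04. Ribosomal protein genes without a peak thus had values unlike those of other genes without a peak, a description with no test, since genes of a library are not replicates. Steady-state medians at 72 h were −0.65 with a peak and −0.54 without.

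The strength of the peak was only weakly related to the size of the change. Over the 32 genes with a peak, fold enrichment and nascent log2 change had a Pearson r of −0.24, −0.25 and −0.28 and a Spearman rho of −0.11, −0.04 and −0.05 at 2 h, 6 h and 24 h, a description across genes that share libraries. Rps23, next in enrichment after Rpl15, was not called at any time, and Rps9, without a peak, fell by 0.84 at 6 h. For 6 of the 32 genes another gene starts within 1000 bp, and at Rps27a that neighbour, Clhc1, changed by −1.05 in TT-seq at 6 h, so the peak cannot be given to 1 gene there.

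**Figure D4:**
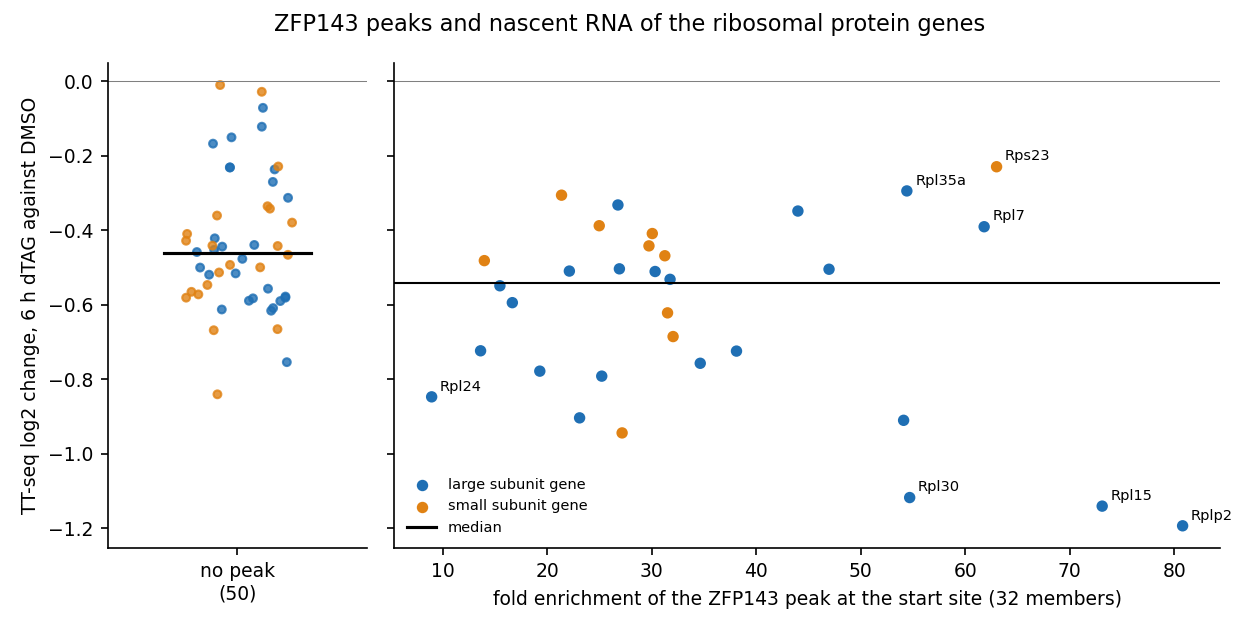
Nascent log2 change at 6 h (y axis) of ribosomal protein genes without a ZFP143 peak at a start site (left) and of those with one, against the fold enrichment of the peak (x axis, right); each dot is 1 gene and the line is the median. Genes with a peak have a median of −0.54 and those without −0.46, and Rplp2 and Rpl15 have the strongest peaks, 80.8-fold and 73.1-fold.

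Of the 83 genes, 63 were found in a RefSeq table of promoters, with 75 promoters of 300 bases each (250 before and 50 after the start), among 32851 promoters in all. Those not found included Rpl17, Rpl21, Rpl23a, Rpl29, Rpl3, Rpl30, Rpl32, Rpl36, Rpl7, Rpl8, Rplp1, Rps14, Rps20, Rps27a and Rps29. The ZFP143 core ACTACAA, searched on both strands as were the other motifs, was in 4 of 75 promoters (5.33%) against 3.24% of all promoters, and the ETS core CCGGAAG in 27 (36.0%) against 8.86%. The YY1 core AAGATGGC was in 8 (10.7%) against 2.75%, and the E-box CACGTG in 8 (10.7%) against 7.15%. A cytosine start with a pyrimidine run of at least 5 bases was found in 13 (17.3%) against 2.51%. The run was read from the annotated start base only, and whether transcripts start there was not tested.

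The ZFP143 core at the other 3 genes that held it is printed for comparison with Rpl15, in capitals with 12 bases on each side, on the strand of the core, from GRCm38.p6. Rps9 lies at chr7:3703979-3704009, Rpl41 at chr10:128549378-128549408 and Rpl10l at chr12:66284591-66284621.
Rps9: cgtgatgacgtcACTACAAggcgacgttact
Rpl41: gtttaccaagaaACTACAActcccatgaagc
Rpl10l: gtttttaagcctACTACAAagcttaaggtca
The core lay 81 bp from the peak centre at Rpl41 and 257 bp at Rpl10l, inside the peak in both, and Rps9 had no peak. In windows of 301 bp at the peak centres ACTACAA was in 597 of 3189 peaks (18.7%) and in 3 of 19 (15.8%) peaks of genes in the promoter table. The paper found its ZFP143 motifs in nearly all of its peaks, so ACTACAA alone misses most sites. Promoters without it, here and in the counts above, can still hold such a site.

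Annotated start sites with a long pyrimidine run are printed beside those of 3 paralogs described above. They show how the TOP element looks and how an annotated start without a run reads. A missing run was not particular to paralogs, since only 13 of the 75 promoters of the family met the rule of 5 bases. A run beginning away from the annotated start was not counted, so this does not show how many of the mRNAs lack the element. Each runs from 10 bases before to 14 after the RefSeq start (GRCm38.p6) on the strand of the gene, with the run of pyrimidines from the start site in capitals.
Rps6: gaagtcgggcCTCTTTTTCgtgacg
Rps18: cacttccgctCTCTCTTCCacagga
Rpl38: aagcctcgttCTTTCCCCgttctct
Rpl39l: aggcctttccggatttccggtggtc
Rpl10l: cctccattttgcggctggcggtggg
Rpl7l1: gctgcgcaagCgcagtagctgaagc
The run was 9 bases in Rps6 (chr4:86857353-86857377, minus strand) and in Rps18 (chr17:33955651-33955675, minus strand) and 8 in Rpl38 (chr11:114668570-114668594, plus strand). It was 0 in Rpl39l (chr16:10170218-10170242, plus strand) and in Rpl10l (chr12:66284387-66284411, minus strand), and 1 in Rpl7l1 (chr17:46782642-46782666, minus strand).

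In the RA table the family stood near the controls after 24 h of depletion, and far below them after depletion with RA. This 24 h contrast gave a median change of −0.06, with 48 of 83 values negative, against 0.06 and 43.2% over all tested genes. The 24 h contrast of the time course gave −0.24, with 80 negative, against 0.02 and 47.9%. The tables were fitted separately, and this gap between them was not tested. The median gene stood at −0.03 and −0.09 in the 2 dTAG libraries relative to the DMSO mean, at 0.02 and −0.01 in DMSO after RA, and at −0.79 and −0.93 in dTAG after RA. Those last 2 libraries lay below all others. The family's share of all counts was 4.19% and 4.22% in the DMSO libraries and 4.35% and 4.21% with dTAG alone. With RA it was 5.16% and 4.92% in controls but 3.44% and 3.17% in depleted cells.

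Before RA, 0 of 83 genes fell by the 1.5-fold test, against 3.66% of all genes, and DESeq2 also called 0. At any size 27 were lower and 11 higher, against 18.8% and 23.2%, with 33 lower at an unadjusted p under 0.05. Of the 27, 23 were of the large subunit, whose median was −0.17 against 0.02 for the small subunit. The split turned with the scaling, to 12 lower and 25 higher with library size alone, and the lower count was 17 without dTAG replicate 1 and 11 without dTAG replicate 2.

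After RA, 46 genes were lower in dTAG than in DMSO by the 1.5-fold test (edgeR glmTreat, against 42 with DESeq2), 30 large and 16 small, against 7.36% of all genes, and 75 at any size against 30.0%. None was higher by either rule. The median change was −0.87, with 80 of 83 values negative, against 0.00 over all genes.

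In DMSO the median RA effect on the family was 0.00. By the 1.5-fold test 2 genes were lower (Rpl7l1 and Rpl10l) and 1 higher (Rpl3l), against 18.1% and 25.8% of all genes, and at any size 21 were lower and 23 higher, against 37.5% and 40.4%. With library size alone, which raised the median of all genes by 0.32, the splits were 0 and 3 by the 1.5-fold test and 4 and 60 at any size. In dTAG the median was −0.86, with 46 genes lower and 1 higher against 18.5% and 25.0%.

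The difference between both RA effects was tested directly. The RA effect was lower in dTAG than in DMSO for 69 of 83 genes (42 large and 27 small) and higher for 1, by the edgeR quasi-likelihood test at an adjusted p under 0.05 and a log2 difference beyond 0.5, against 18.0% and 13.7% of all genes. By the 1.5-fold test used for the other RA contrasts it was lower for 36. The median difference was −0.81, against −0.07 over all genes. Depleted cells given RA had been depleted for 48 h and those without RA for 24 h, so the longer depletion and RA cannot be told apart here. In the time course without RA the median change at 48 h was −0.32.

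**Figure D5:**
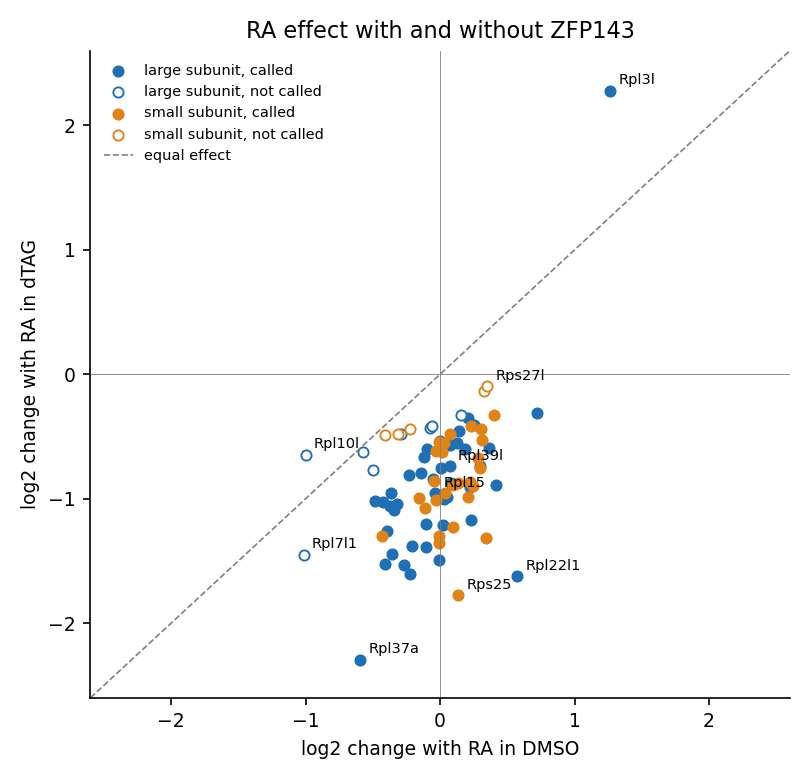
RA effect (log2) in DMSO (x axis) and in dTAG (y axis) for each of the 83 ribosomal protein genes, with the line of equal effects; each dot is 1 gene, filled where the difference between both effects was called. Most genes lie below the line, with a median of 0.00 in DMSO and −0.86 in dTAG, and Rpl3l lies above it.

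Rpl37a, Rps29 and Rps25 had the lowest changes of the family in dTAG against DMSO after RA. Rpl37a stood at 367 and 366 CPM in DMSO, 243 and 244 CPM in DMSO after RA, 273 and 259 CPM in dTAG, and 54.6 and 53.8 CPM in dTAG after RA. The level with both treatments was far below that with either, and the interaction was −1.70 ± 0.10 (edgeR adjusted p = 4.49e-11). Rps25 stood at 410 and 319 CPM, 405 and 397 CPM, 382 and 374 CPM, and 111 and 110 CPM in the same order, and lay below DMSO only in the last group, with an interaction of −1.91 ± 0.12. Rps29 stood at 166 and 178 CPM, 174 and 168 CPM, 105 and 97.9 CPM, and 39.7 and 39.5 CPM, with an interaction of −1.35 ± 0.10.

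Rpl15 stood at 338 and 321 CPM in DMSO, 316 and 328 CPM in DMSO after RA, 272 and 249 CPM in dTAG, and 138 and 130 CPM in dTAG after RA. It was lower in dTAG before RA at any size, by 0.34 ± 0.07, and after RA by the 1.5-fold test, by 1.26 ± 0.07. Its interaction of −0.92 ± 0.10 (edgeR adjusted p = 2.92e-07) was near the median of the family. Rplp2 differed by −0.54 before and −1.12 after RA, with an interaction of −0.58 ± 0.12.

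Rpl11 stood at 312 and 334 CPM in DMSO, 310 and 291 CPM in DMSO after RA, 291 and 289 CPM in dTAG, and 116 and 107 CPM in dTAG after RA, an interaction of −1.28 ± 0.10. Rpl5 had an interaction of −0.68 ± 0.10 and Rplp1 one of −0.64 ± 0.12, both called, while Rplp0 had −0.27 ± 0.11 and passed at any size only. The 13 genes with no call included Rps2 with −0.08 and Rpl18 with −0.19, and Rps2 stood at 1188 and 1032 CPM in the last group against 1427 and 1277 CPM in DMSO after RA.

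Among paralogs Rpl22l1, not called after 72 h of depletion, stood at 108 and 75.5 CPM in DMSO, 132 and 141 CPM in DMSO after RA, 136 and 122 CPM in dTAG, and 43.7 and 40.2 CPM in dTAG after RA. Its interaction of −2.19 ± 0.16 was the lowest of the family. Rpl7l1 fell with RA in both conditions, from 335 and 323 CPM to 160 and 165 CPM in DMSO and from 354 and 340 CPM to 130 and 125 CPM in dTAG. Rpl39l was higher in dTAG before RA at any size, by 0.70 ± 0.10, and stood at 49.0 and 49.7 CPM in dTAG after RA. Rpl3l, at low counts, rose with RA from 1.99 and 3.09 CPM to 6.61 and 5.38 CPM in DMSO, and from 1.61 and 1.67 CPM to 8.10 and 7.90 CPM in dTAG, with an interaction of 1.02 ± 0.32.

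The cells of the RA groups differed in markers too. The summed level of 12 pluripotency markers was 2072 and 1460 CPM in DMSO after RA and 1891 and 1573 CPM in dTAG after RA, against 9118 and 9616 CPM in DMSO. The summed level of 10 neural and RA-response markers was 609 and 711 CPM in DMSO after RA and 291 and 312 CPM in dTAG after RA, with none at 0 in those 4 libraries. That of 8 primitive endoderm markers was 42.5 and 44.8 CPM and 61.9 and 59.3 CPM. Single pluripotency markers differed between the last 2 groups more than their sum, with 7 of 12 higher and 2 lower in dTAG after RA at any size, against 30.5% and 30.0% of all genes, and a median of 0.63. The part of these markers in the ribosomal protein result was not tested.

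Genes of related function gave a setting for these values. Of other ribosomal proteins outside the symbol rule, Rack1, a scaffold on the small subunit, fell in TT-seq by 0.67, by 0.77 and by 0.74, and Fau, a ubiquitin-like fusion with a small subunit protein, had nascent changes of 0.01, −0.44 and −0.35 and fell after RA by 0.79. Among 26 other translation genes of the TOP class, 8 fell in RNA-seq at 72 h, against 12.0% of all tested genes, with a list median of −0.48, among them the elongation factors Eef1d by 0.76, Eef1a1 by 0.71 and Eef1b2 by 0.71, and 12 were lower in dTAG after RA, against 7.36%, with a median of −0.68.

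Mitochondrial ribosomal protein genes had a median near that of the family in TT-seq at 2 h, −0.25 against −0.23. In the later contrasts given here their medians were less negative, and ribosome assembly genes had values of their own. Of 78 mitochondrial ribosomal protein genes 7, 8 and 7 fell in TT-seq with medians of −0.25, −0.32 and −0.18, against 2.37%, 2.92% and 4.25% of all genes. Of those tested in RNA-seq 9 of 76 fell at 72 h with a median of −0.20, close to the 12.0% of all genes, and 7 of 77 were lower in dTAG after RA with a median of −0.23, against 7.36%. Of 66 ribosome biogenesis genes 1, 3 and 3 fell in TT-seq, and 7 fell at 72 h with a median of −0.26, against the same 2.37%, 2.92%, 4.25% and 12.0%. At any size 42 were lower at 72 h, against 36.2%. With RA 54 were lower in DMSO and 55 in dTAG by the 1.5-fold test, against 18.1% and 18.5%, and the median difference between both RA effects was −0.02. Of the 18 RNA polymerase I list genes 15 were tested in RNA-seq, of which 3 fell and 1 rose at 72 h, against 12.0% and 13.7%.

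Of 12 listed regulators none was called in TT-seq, and 3 fell and 1 rose in RNA-seq at 72 h, against 12.0% and 13.7% of all genes. Mycn, which drives ribosome production in stem cells, changed by −0.27 at 24 h and fell by 0.80 at 48 h and by 1.17 at 72 h in RNA-seq, and Max, the partner of Myc proteins, fell by 0.85, by 1.10 and by 1.16. Gabpa, an ETS factor, fell by 0.85 at 72 h. Mdm2, the p53 ligase that Rpl5 and Rpl11 bind, changed by 0.29 at 24 h and rose by 1.19 at 48 h and by 1.00 at 72 h.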

How the data were processed

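The authors deposited 3 tables of raw counts, with genes of GENCODE vM25 on mm10: for TT-seq, uniquely mapped reads over whole genes without duplicates, and for RNA-seq the gene counting of STAR, whose strand setting is not given in the sources used here. The ZFP143 peak list deposited by the authors is 1 list made with MACS2, with a fold enrichment over input and a −log10 q value per peak. The methods of the study call the replicates biological. Symbols came from GENCODE vM21, in which 55141 of 55401 identifiers were found.

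Counts were analysed with edgeR 4.0.16 (R 4.3.3). A gene was tested in a table if 4 or more of its 8 libraries had over 10 counts. Each table was scaled by TMM and fitted in 1 quasi-likelihood model. Adjusted p-values follow Benjamini and Hochberg over all tested genes. TT-seq contrasts and the interaction were called where the adjusted p was below 0.05 and the log2 change beyond 0.5 either way, and RNA-seq contrasts by glmTreat against a fold of 1.5 at an adjusted p under 0.01, the thresholds the study applied with DESeq2. "Any size" is the quasi-likelihood test at an adjusted p under 0.05. Errors of log2 changes are standard errors, and CPM use TMM-scaled totals. Contrasts against DMSO share the DMSO libraries. The authors' tables of comparisons and the signal tracks were not used. Motifs and promoters were read from the RefSeq table and the GRCm38.p6 genome with Python 3.11.15.

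Members and gene lists were chosen with earlier results of these data known. Genes named are Rpl15, the P stalk, the 5S particle with Rpsa, paralogs, genes called in TT-seq or with a peak, the 3 lowest and 3 highest per contrast with a mean count of at least 100, regulators, and called genes of the other lists, at most 3 per list and contrast. Further genes (Rpl8, Rps6, Rpl38 and the parent genes of paralogs) were named after their values were seen, and some genes are not reported here by name. On counts simulated with 1 spread common to all genes, 200 genes per table were given 2-fold changes. Of those that passed the filter, 38.6% were recovered at any size with 4 false calls in TT-seq at 2 h. The values were 90.5% with 8 in RNA-seq at 24 h and 92.5% with 8 for RA in DMSO. Alternatives were other scalings, no filter, DESeq2 1.42.0, the other call rule, a replicate block and leaving out each library.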

Additional observations from a re-analysis of the deposited data

Results flagged for a closer look

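The RA effect differed between depleted and control cells, by the interaction test of edgeR, for most of the family. It was lower in dTAG than in DMSO for 69 ribosomal protein genes and higher for 1, against 18.0% and 13.7% of all genes. By the 1.5-fold test used for the other RA contrasts it was lower for 36. The difference in RA effect, on the log2 scale, was −2.19 for Rpl22l1, −1.91 for Rps25, −1.70 for Rpl37a, −0.92 for Rpl15 and −0.81 for Rpl39l, and 1.02 for Rpl3l, which had few counts. The RA-treated depleted cells had also been depleted for longer, which cannot be told apart from RA in these libraries.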

How the results depend on the processing

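Values of the median change against DMSO kept their sign under all alternatives in TT-seq and in the RNA-seq time course, but not in the RA table before RA. The TT-seq counts moved with most alternatives. Genes called lower in TT-seq (3, 24 and 21 at 2 h, 6 h and 24 h) numbered 9 and 41 at 2 h and 6 h with no filter on low counts, 0, 0 and 0 under the rule of the RNA-seq contrasts, 6 with DESeq2 at 2 h and 10 with library size alone at 24 h. At any size they numbered 9, 44 and 34 with no filter, 6 with DESeq2 at 2 h and 10 with library size alone at 24 h. Leaving out 1 library gave 0 to 1, 0 to 10 and 1 to 13 by either rule. With the replicate block 7 and 37 were called at 2 h and 6 h, and 9, 47 and 39 at any size, and the block moved no count of the other contrasts by over 1.5 times. The shared numbers are not stated to mark a pair. Correlations of same-numbered deviations were 0.204 to 0.651 in TT-seq, −0.046 to 0.060 in RNA-seq and −0.146 to 0.167 in the RA table.

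With library size alone the RNA-seq medians were −0.11, −0.12 and −0.35 at 24 h, 48 h and 72 h and −0.0083 from 24 h to 48 h, with 37 and 43 genes lower at any size at 24 h and 48 h, 18 from 24 h to 48 h, and 2 and 5 called at 48 h and 72 h. In the RA table it gave medians of 0.075 before RA, −0.67 after RA, 0.32 for RA in DMSO and −0.47 for RA in dTAG, 12 genes lower at any size before RA, 4 for the RA effect in DMSO, and 0 and 20 called for the RA effect in DMSO and in dTAG. The RNA-seq median at 72 h was −0.58 with DESeq2 or its size factors, −0.59 with TMM without the ribosomal protein genes and −0.61 with no filter. With no filter 1 and 8 genes were called at 24 h and 48 h, and with DESeq2 2 and 15 at 48 h and 72 h. The TT-seq call rule gave 6, 21 and 49 at 24 h, 48 h and 72 h, 1 from 24 h to 48 h and 1 from 48 h to 72 h, 4 before RA and 4 for RA in DMSO, and a 1.5-fold threshold gave 36 for the interaction. Leaving out 1 library gave 0 to 1 called at 24 h, 3 to 7 at 48 h, 0 to 1 from 24 h to 48 h, medians of −0.60 to −0.59 at 72 h and −0.26 to −0.19 from 48 h to 72 h, and at any size 18 to 34 from 24 h to 48 h and 11 to 29 before RA. The cause of these shifts was not tested. The comparisons between times and the counts at any size were tried under alternatives chosen after seeing the data, as was the share of counts without CT010467.1, 5.13% in RNA-seq DMSO against 5.02%. Over the log2 changes of single named genes under these alternatives, 411 values lost and 174 gained a call, and none changed sign when called. With 2 libraries a group and a spread of 17.2%, TT-seq has the least power of the 3 tables for small changes.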
